A study of Mus musculus with 6 samples.

Results

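Cilium genes were followed in brain RNA from mice that lack Dap12 and from heterozygous mice. The genes were Foxj1, a regulator of motile cilium genes, those of the motile axoneme (the Dnah, Rsph and Spag names) and the Cfap genes, of varied function. With them were genes of the transport machinery that motile and primary cilia share (the Ift and Bbs names). They were chosen by gene symbol alone: a probe set, a group of short probes for 1 transcript, was taken if its single symbol in the platform annotation began with Dnah, Dnai, Cfap, Rsph, Ift or Bbs followed by a digit, or was Foxj1, Spag6l, Spag16 or Spag17. This gave 107 of the 45101 probe sets on the array, for 67 of 18193 genes with a single symbol. No symbol had Dnai followed by a digit; the annotation carries those genes under the older names Dnaic1 and Dnaic2.

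Total RNA was profiled on 6 one-colour Affymetrix arrays, 3 from knockout mice (titled Dap12-ko 67, 68 and Ko1) and 3 from heterozygotes (Dap12-het 75, 76 and 81), all 1 month old. Dap12, encoded by Tyrobp, is an adaptor that passes on the signals of microglial receptors. The controls thus carry 1 disrupted copy of the same gene, and no wild-type mouse was among the samples analysed here. The source field describes all 6 samples as Dap12-deficient, and the genotype comes from titles and descriptions. The design names midbrain with diencephalon and basal ganglia, a region that borders on ventricles. Strain, sex, the way the allele was made and whether each array is a separate animal are not given in the labels, so p-values measure only the spread between these samples, which may be technical.

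A cilium is a microtubule rod, the axoneme, sheathed by cell membrane. Motile cilia stand in tufts on ependymal cells, which line the ventricles and move cerebrospinal fluid. Dynein arms slide their outer doublets, and radial spokes and a central pair of microtubules regulate the beat. Most neurons and astrocytes carry a single primary cilium, which has no dynein arms and serves as an antenna for Hedgehog and G protein-coupled signals. Both kinds are built by intraflagellar transport (IFT), in which IFT-B trains move cargo to the tip with kinesin-2 and IFT-A trains return it with dynein-2. The BBSome, a coat of Bbs proteins, loads membrane proteins on these trains. Foxj1 is the forkhead factor that drives motile cilium genes, and RFX factors act on motile and primary cilium genes through a promoter element called the X-box.

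The X-box is what the promoters of these genes were searched for, and the matches are shown as the sequence feature that the choice by name did not use. RefSeq promoters (assembly GRCm38.p6, from 250 bases before to 50 after each start site) were found by gene ID for 55 of the 67 genes. The 14-letter X-box consensus of RFX factors, read on both strands, stood in the promoters of 6 of these 55 genes (10.9%) and of 215 of all 27025 genes in the table (0.796%). Its half-site GTTGCC, which lies within 5 of these 6 matches, stood in 16 of 55 (29.1%) against 14.1% of all genes. The forkhead heptamer TGTTTAC stood in 3 of 55 (5.45%) against 4.05%. A match is a string of letters, not evidence of binding. For 5 of the genes the X-box lies before the start site and is printed in capitals, with up to 30 bases on either side and none past the start site, 5′ to 3′ along the gene.
Ift57 (chr16:49699177-49699250, plus strand, 87 bases before the start site): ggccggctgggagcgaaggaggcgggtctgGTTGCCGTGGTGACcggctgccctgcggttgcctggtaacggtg
Cfap298 (chr16:90934994-90935067, minus strand, 188 bases before): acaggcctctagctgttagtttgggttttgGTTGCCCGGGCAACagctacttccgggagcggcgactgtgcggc
Cfap20dc (chr14:8666349-8666422, minus strand, 102 bases before): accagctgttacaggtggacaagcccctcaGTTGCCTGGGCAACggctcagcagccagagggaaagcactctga
Spag16 (chr1:69826837-69826910, plus strand, 103 bases before): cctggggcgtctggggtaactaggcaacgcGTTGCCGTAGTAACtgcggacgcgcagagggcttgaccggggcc
Cfap45 (chr1:172521081-172521129, plus strand, 19 bases before): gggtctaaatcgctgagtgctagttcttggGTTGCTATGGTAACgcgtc
The sixth gene, Bbs1, has its match just past its start site. The boxes of Cfap298 and Cfap20dc match on both strands.

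Tyrobp was low on each array labelled knockout, and the arrays also differed in ways unrelated to mouse transcripts. In what follows, signals are listed in the order 67, 68, Ko1 for knockout and 75, 76, 81 for heterozygous mice. Tyrobp read 2.28, 23.7 and 12.9 on the knockout arrays, against 70.7, 68.2 and 77.6 on the heterozygous arrays, with no overlap (log2 change -1.68 ± 0.33 SE, limma adjusted p = 0.0439). Leaving out any of the 5 arrays besides Ko1 ended this call, at changes from -1.94 to -1.38. Where its probes lie relative to the deleted part was not examined. The median signal of an array was 24.6 to 40.3 in the knockout group and 20.3 to 21.9 in the heterozygous group. Of 45 probe sets for bacterial and phage spike-in transcripts, 43 had all 3 knockout signals above all 3 heterozygous signals, with a median ratio of group means of 3.48. Genotype and a technical difference between the groups' arrays therefore cannot be told apart in what follows. Markers of brain tissue were present, since all 6 neuronal, 6 astrocytic and 6 microglial marker genes were bright enough to test. The microglial gene Itgam passed only through knockout signals, as it read 16.8, 19.8 and 11.6 on heterozygous 75, 76 and 81, under the level limit given below.

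No cilium probe set changed between the genotypes at an adjusted p of 0.05. The test was limma's moderated test on log2(signal + 16), adjusted by Benjamini-Hochberg over the 22518 probe sets whose mean log2 value lay above the median, a limit that corresponds to a signal of 24.2. Fold changes on this scale understate the change of dim probe sets. Of the cilium probe sets 49 passed the limit, for 37 genes, and 0 of the 49 were called (limma), against 1.98% of all probe sets tested (445 of 22518). An unadjusted p under 0.05 was reached by 6 of 49 (12.2%), against 20.9% of all. The standard errors of the 49 changes ran from 0.19 to 0.50, and the median half-width of their 95% confidence intervals was 0.63 on the log2 scale. That width belongs to an unadjusted p of 0.05, and a call at the adjusted threshold needed a larger change for the same SE. With 3 arrays a group, even the largest of the 49 changes, 1.34, was not called.

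The tested cilium probe sets stood slightly low on knockout 67 and 68 but not on Ko1, with changes in both directions. The median change was -0.18 on the log2 scale against 0.00 for all probe sets tested, and 17 of 49 changes were above 0 against 50.1% of all. Leaving out knockout 67 moved the cilium median to -0.058, and leaving out 68 moved it to -0.12. Over all 107 cilium probe sets with no limit on level the median was 0.042 against 0.16, and 59 were above 0. With the limit raised to the 75th percentile the median was -0.16 over 18 cilium probe sets, against -0.11 for all tested. With only the brightest probe set of each gene it was -0.19 against -0.09. The gap to all probe sets thus differed with the arrays and probe sets compared, and the reason was not tested. Groups did not overlap for 12 of 49 (24.5%), against 27.4% of all probe sets tested. Of these, 9 were lower on the knockout arrays (18.4%, against 12.5% of all) and 3 were higher (6.12%, against 14.9%). Bulk RNA cannot tell fewer ciliated cells from less RNA per cell. Centring each array on its median put 5 of 49 changes above 0, but the median over all probe sets then stood at -0.40.

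**Figure D1:**
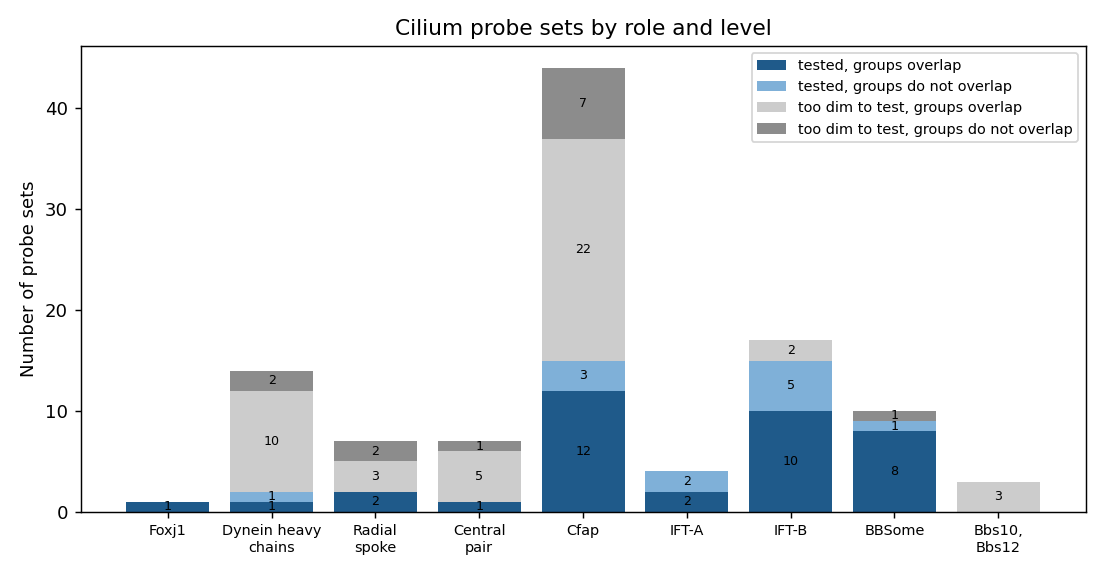
Number of cilium probe sets in each role (y axis), split by whether they were bright enough to test and by whether the 3 knockout and 3 heterozygous signals overlapped. Of 107 probe sets 49 were tested; IFT-A, IFT-B and BBSome probe sets were mostly tested, whereas 12 of 14 dynein heavy chain and 6 of 7 central pair probe sets were too dim.

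The level limit divided the roles. All 4 IFT-A probe sets, 15 of 17 for IFT-B and 9 of 10 for the BBSome were tested. Of the 29 probe sets of Foxj1, dynein heavy chains, radial spoke and central pair together, 6 were tested, and 15 of 44 Cfap probe sets were. Brightness also depends on the probes themselves, so this count does not rank the transcripts' abundance. The plot of probe sets by role shows the split.

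Foxj1, the regulator of the motile programme, showed no change larger than its spread. Its probe set read 38.1, 41.3 and 23.0 on the knockout arrays, against 51.7, 26.3 and 32.9 on the heterozygous arrays. The groups overlap, and the highest and lowest signals are a heterozygous and a knockout array. The log2 change was -0.07 ± 0.30 (SE), with a 95% interval from -0.75 to 0.61 (limma adjusted p = 0.917).

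Among the tested motor and spoke probe sets the groups failed to overlap only for Dnah1, an inner-arm dynein heavy chain. It read 22.5, 67.5 and 78.5 on the knockout arrays, against 81.5, 124.6 and 97.4 on the heterozygous arrays. Every knockout signal lay below every heterozygous one, most of all that of knockout 67, and the change of -0.79 ± 0.35 did not pass (limma adjusted p = 0.249). Dnah7a, another inner-arm heavy chain, had a log2 change of -0.15 ± 0.35, and was at 12.3 on knockout 67 but 46.4 on Ko1. The radial spoke head genes Rsph1 and Rsph9 had log2 changes of -0.18 ± 0.28 and -0.23 ± 0.29, with overlapping groups. A second Dnah1 probe set and those of Dnah2, Dnah5, Dnah6, Dnah8, Dnah9, Dnah11, Dnah12 and Dnah17 were too dim to test, as were those of Rsph3a, Rsph4a, Rsph6a and Rsph14.

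Spag6l, a central pair protein, was high on only some knockout arrays. It read 71.4 on knockout 67, 71.0 on 68 and 18.5 on Ko1, against 23.97, 19.3 and 28.2 in the heterozygotes. Knockout Ko1 was thus the lowest of the 6 and the other knockout arrays were the highest. The change of 0.69 ± 0.39 did not pass (limma adjusted p = 0.35). Without knockout Ko1 it was 1.14 ± 0.25 (limma adjusted p = 0.0162). In that setting 23.2% of all probe sets tested were called (5220 of 22518). Calls without Ko1, here and below, are therefore not particular to the cilium genes. The heterozygous signals average below the level limit on the log2 scale, so this probe set passed it only through knockout 67 and 68. The partner proteins Spag16 and Spag17 were dim on their 4 and 2 probe sets, with mean signals over the 6 arrays of 9.87 or less.

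**Figure D2:**
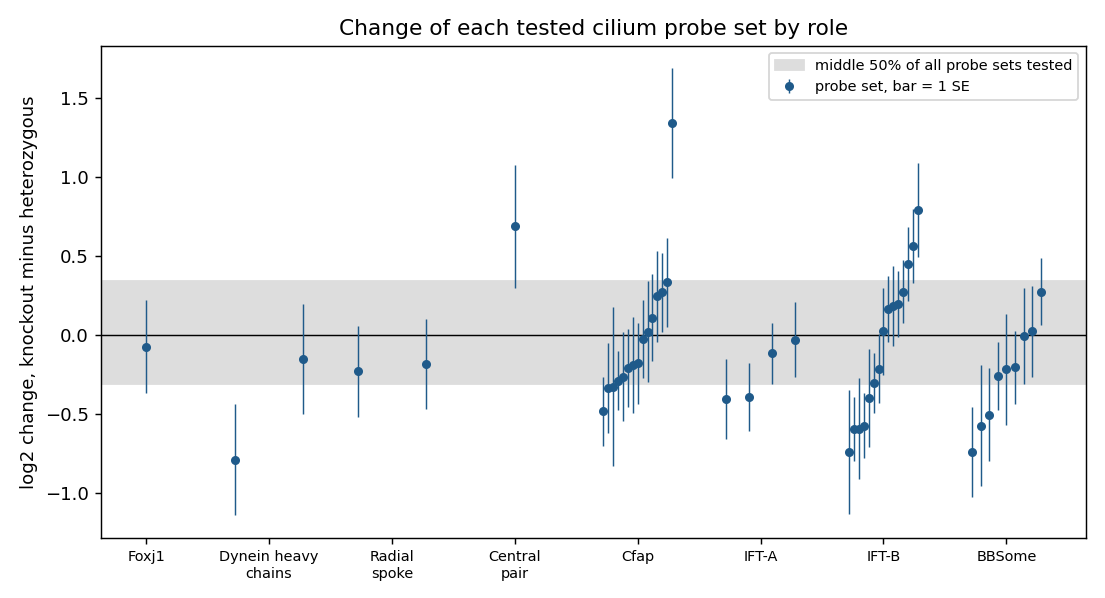
Change of each tested cilium probe set (points, knockout minus heterozygous on the log2(signal + 16) scale, bars 1 SE, n = 3 and 3) by role, with the middle 50% of all 22518 probe sets tested in grey. Changes ran from -0.79 (Dnah1) to 1.34 (a Cfap97 probe set), and most lie within or just below the grey band.

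The Cfap genes, named for cilia and flagella associated proteins of varied function, had 15 probe sets tested, 6 with changes above 0 and 9 below, and a median of -0.18. Cfap20, a protein of the seam that joins the tubules of a doublet, had changes below 0 on both probe sets. Its probe set 1452896_at read 98.8, 121.4 and 163.1 on the knockout arrays, against 174.7, 181.0 and 188.0 on the heterozygous arrays. All heterozygous signals lay above all knockout signals, and Ko1 was the nearest of the knockout arrays (-0.48 ± 0.22, limma adjusted p = 0.255). The other, 1419462_s_at, read 169.1 and 178.5 on knockout 67 and 68 but 364.5 on Ko1, against 278.4, 272.2 and 306.7 (-0.33 ± 0.29, limma adjusted p = 0.543). Without knockout Ko1, where 23.2% of all probe sets were called, both were called lower. The changes were -0.65 ± 0.18 (limma adjusted p = 0.0357) and -0.67 ± 0.16 (limma adjusted p = 0.0216).

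Cfap97 had the smallest p of the 49 tested cilium probe sets, on a dim probe set that disagreed with a brighter one. Probe set 1450076_at read 68.5, 63.7 and 31.0 on the knockout arrays, against 8.62, 20.1 and 5.78 on the heterozygous arrays. The groups do not overlap, and the change was 1.34 ± 0.35 (limma adjusted p = 0.0826; exact permutation p = 0.1, two-sided, the smallest that 3 arrays against 3 allow). All heterozygous signals were under 24.2, so the probe set passed the level limit only through the knockout arrays. The brighter 1429155_at read 191.7, 218.0 and 254.4 against 283.8, 272.2 and 259.9, again without overlap but lower on the knockout arrays (-0.29 ± 0.19, adjusted p = 0.421). The remaining probe set was too dim to test.

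Cfap36, which binds the ciliary GTPase Arl3, had no difference beyond its spread. It read 479.9, 612.5 and 1044.5 on the knockout arrays, against 657.1, 660.5 and 560.2 on the heterozygous arrays, so that the knockout arrays enclose the heterozygous ones (0.11 ± 0.28, limma adjusted p = 0.851). Cfap298 had log2 changes of 0.02 ± 0.32 and 0.27 ± 0.25 on its tested probe sets and Cfap410 had changes of -0.18 ± 0.26 and -0.20 ± 0.25. The groups overlapped for each of these.

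**Figure D3:**
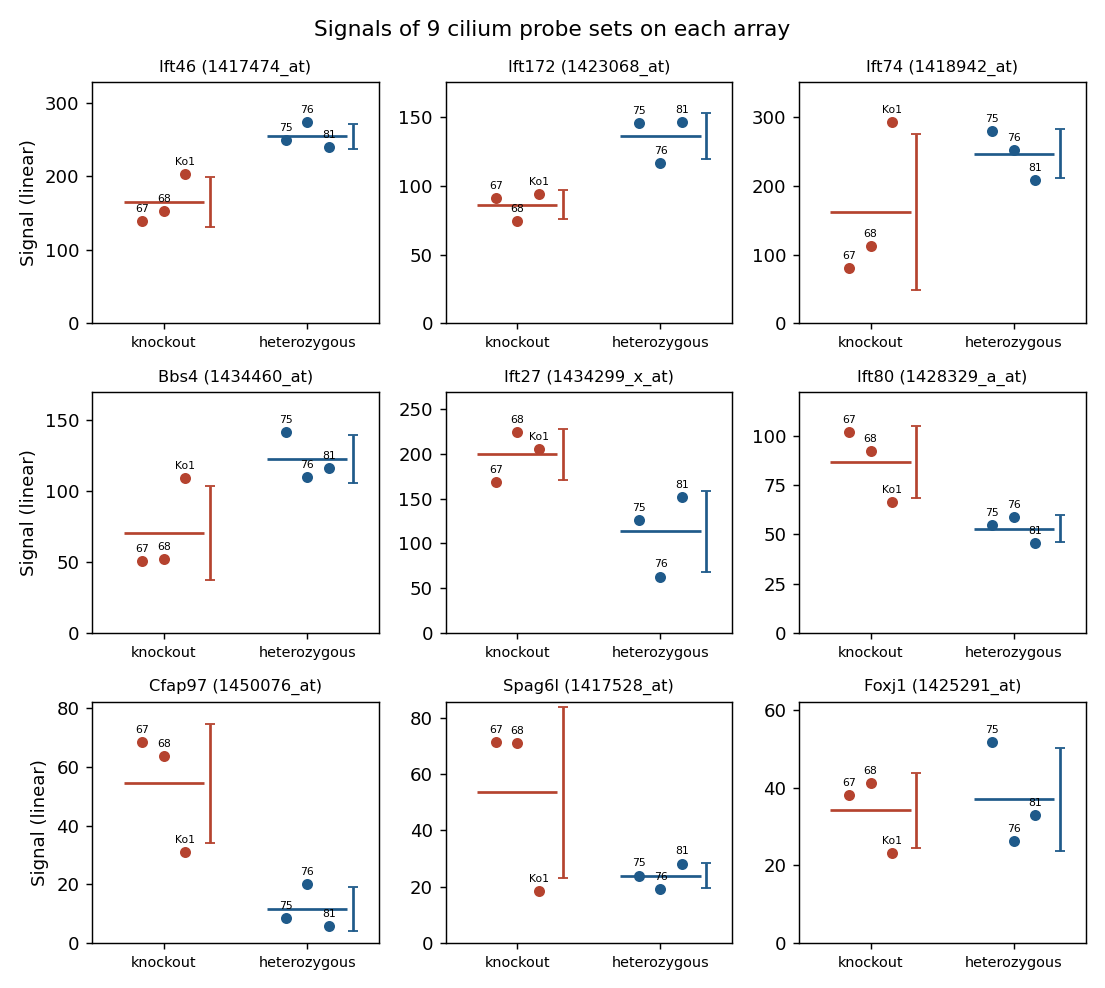
Signal (linear, from 0) of 9 cilium probe sets on each array; points are arrays with their sample names, lines are group means and bars are SD (n = 3). The probe sets shown of Ift46, Ift172 and Bbs4 are lower and those of Ift27, Ift80 and Cfap97 higher on all knockout arrays, while other tested probe sets of Bbs4, Ift80 and Cfap97 had changes of the other sign; in Ift74 and Spag6l knockout Ko1 lies with the heterozygous arrays, and in Foxj1 the groups overlap.

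Intraflagellar transport genes, with 19 of the 49 tested probe sets, held 7 of the 12 whose groups did not overlap. These 7 were 36.8% of the 19, against 27.4% of all probe sets. They were 5 lower and 2 higher on the knockout arrays, where 12.5% of all probe sets were lower and 14.9% higher without overlap. The median change of the 19 was -0.11. In IFT-A all 4 changes were below 0. Ift122, a core subunit, read 51.9, 74.4 and 63.0 against 90.0, 77.8 and 93.7 on probe set 1427239_at and 75.9, 134.9 and 147.6 against 158.8, 148.2 and 165.9 on 1441259_s_at, knockout first. Neither probe set showed overlap, and their changes of -0.39 ± 0.22 and -0.40 ± 0.25 did not pass (limma adjusted p = 0.341 and 0.405). Ift140, also of the core, had a log2 change of -0.11 ± 0.19 and the small subunit Ift43 one of -0.03 ± 0.24.

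In IFT-B 8 changes were above 0 and 7 below, with a median of 0.03. Ift46, a core subunit that in Chlamydomonas is needed to carry outer dynein arms, read 139.4, 152.3 and 203.3 on the knockout arrays, against 249.7, 273.1 and 239.5 on the heterozygous arrays. Every knockout signal was lower, and the change was -0.59 ± 0.20 (limma adjusted p = 0.152; 95% interval -1.06 to -0.13). Ift172, the largest peripheral subunit, read 91.0, 74.4 and 94.0 against 146.0, 116.8 and 146.2. It was low on all 3 knockout arrays alike (-0.57 ± 0.20, limma adjusted p = 0.161). Without knockout Ko1, Ift46 was called at -0.74 ± 0.17 (limma adjusted p = 0.0173), as were 23.2% of all probe sets.

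Ift74 and Ift81 form the tubulin-binding pair of the train. Ift74 read 80.9, 112.0 and 292.3 on the knockout arrays, against 279.2, 251.8 and 209.0 on the heterozygous arrays, so that Ko1 was the highest array and the other knockout arrays were the lowest. Its change was -0.74 ± 0.39 (limma adjusted p = 0.322), and -1.23 ± 0.21 without Ko1 (adjusted p = 0.00609). Ift81 read 102.4, 100.8 and 89.6 against 115.7, 134.9 and 121.6 on 1449407_at, lower on all 3 knockout arrays (-0.30 ± 0.19, limma adjusted p = 0.405). Its second tested probe set overlapped between groups (-0.21 ± 0.22).

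Ift80, a peripheral subunit, had changes on opposite sides of 0 on its probe sets. On 1428329_a_at it read 101.7, 92.4 and 66.3 on the knockout arrays, against 54.7, 58.6 and 45.4 on the heterozygous arrays, all knockout signals being higher (0.57 ± 0.23, limma adjusted p = 0.213). On 1427568_a_at it read 34.7, 62.8 and 103.2 against 120.9, 87.5 and 98.5, with overlap through Ko1 (-0.59 ± 0.32, limma adjusted p = 0.331). Without Ko1, where 23.2% of all probe sets were called, the first was called higher (0.72 ± 0.22, limma adjusted p = 0.0461). The second was called lower (-0.89 ± 0.26, limma adjusted p = 0.0417). No single direction can be given for the gene.

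Ift27, a small GTPase of the train, had changes above 0 on all 3 of its probe sets. The largest difference was on 1434299_x_at, at 168.9, 224.0 and 204.9 on the knockout arrays, against 125.6, 63.1 and 151.7 on the heterozygous arrays. All knockout signals were higher, with heterozygous 76 well below the rest (0.79 ± 0.30, limma adjusted p = 0.175). The others had log2 changes of 0.45 ± 0.24 and 0.17 ± 0.21, with overlap, and the ending x in 2 of the 3 names marks probes that can match other transcripts. Ift57, whose promoter is printed above, read 314.7, 227.4 and 267.4 against 193.7, 231.8 and 230.3 (0.28 ± 0.20), with overlap. Ift22 (0.03 ± 0.28), Ift52 (0.20 ± 0.21), Ift20 (0.18 ± 0.25) and Ift88 (-0.39 ± 0.31) also overlapped.

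The BBSome had 9 probe sets tested, 7 of them with changes below 0, and a median of -0.21. Bbs4, a subunit that links the coat to pericentriolar material, had 4 tested and they disagreed. On 1434460_at it read 50.6, 51.9 and 108.8 on the knockout arrays, against 141.3, 110.0 and 116.2 on the heterozygous arrays. All knockout signals were lower, Ko1 only just (-0.74 ± 0.28, limma adjusted p = 0.188; -1.04 ± 0.21 without Ko1, adjusted p = 0.0111). The brightest Bbs4 probe set, 1449734_s_at, read 217.3, 326.1 and 319.0 against 233.1, 240.3 and 219.7 and stood the other way (0.28 ± 0.21, limma adjusted p = 0.488). The remaining changes were -0.57 ± 0.39 and 0.00 ± 0.31. The probe set at -0.57 had knockout signals that averaged just below the level limit on the log2 scale, so it was tested only through its heterozygous signals. Among other subunits Bbs1 had a log2 change of -0.20 ± 0.23, Bbs2 one of -0.50 ± 0.29, Bbs5 one of 0.03 ± 0.29, Bbs7 one of -0.26 ± 0.22 and Bbs9 one of -0.21 ± 0.35, all with overlap. Bbs10 and Bbs12, chaperonin-like proteins that help to assemble the coat, were too dim on all 3 probe sets.

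Probe sets of 1 gene thus did not always change in the same direction. Of the 9 cilium genes with more than 1 tested probe set, 6 had all changes on the same side of 0 (Cfap20, Cfap298, Cfap410, Ift122, Ift27 and Ift81). The other 3 had changes on both sides (Bbs4, Cfap97 and Ift80). For Cfap97, 1 probe set was higher and 1 was lower on all 3 knockout arrays.

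**Figure D4:**
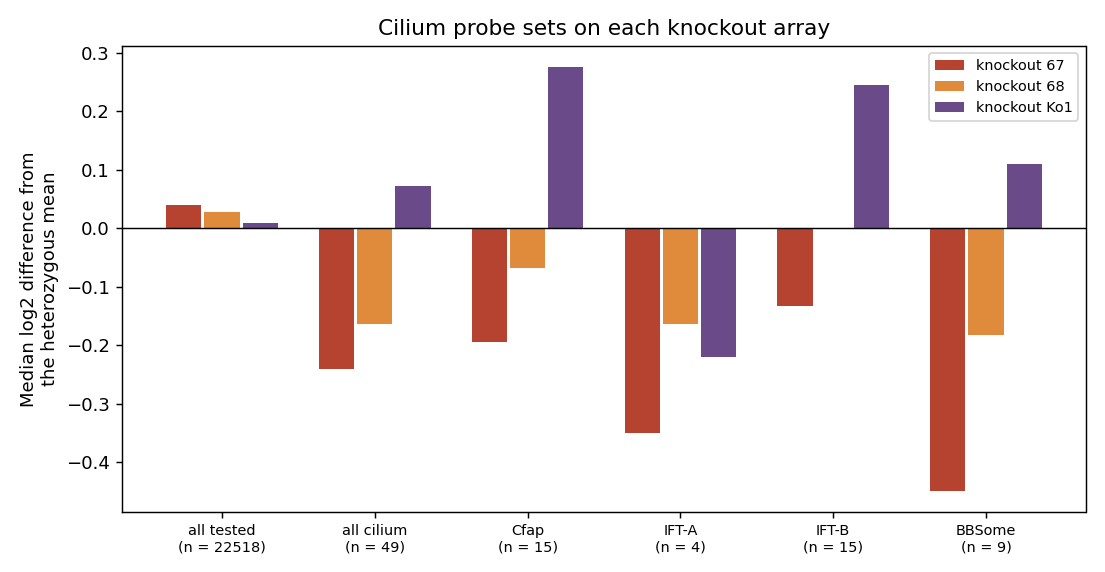
Median difference of each knockout array from the heterozygous mean (log2 scale) over all 22518 probe sets tested, the 49 cilium probe sets and 4 of their roles. Knockout 67 and 68 lie below 0 for the cilium probe sets (-0.24 and -0.16) and Ko1 above (0.07); the median over all probe sets is between 0.01 and 0.04.

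The knockout arrays were not alike in these genes. Over the 49 tested cilium probe sets the median difference from the heterozygous mean was -0.24 on knockout 67, -0.16 on 68 and 0.07 on Ko1, and over all probe sets tested it was 0.04, 0.03 and 0.01. For the BBSome it was -0.45, -0.18 and 0.11, and for IFT-B -0.13, 0.00 and 0.24. IFT-A was below 0 on each, at -0.35, -0.16 and -0.22. With knockout Ko1 left out, 9 of 49 cilium probe sets were called, 3 higher and 6 lower (18.4%), against 23.2% of all probe sets (5220 of 22518). The 9 were those of Ift74, Ift46, Cfap20 (both), Spag6l and Ift80 (both) and the probe sets of Cfap97 and Bbs4 described above. Of the 3 called higher, those of Spag6l and Cfap97 had passed the level limit only through knockout signals, so their calls are not independent of that limit. With knockout 67 and 68 left out, the knockout group was Ko1 alone, which the fit assumes to vary like the heterozygous arrays. Then 0 of 49 were called (limma; 5 at an unadjusted p under 0.05), against 2.73% of all probe sets (615 of 22518), the median was 0.072 and 28 of 49 changes were above 0.

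The dim cilium probe sets gave few signals that can be read. Of the 58 under the level limit, 11 were higher on every knockout array (19.0%), against 18.8% of all probe sets under the limit, and 2 were lower (3.45%, against 2.32%). Both probe sets of Cfap70, an outer dynein arm protein, were among the 11, the brighter at 29.7, 27.8 and 19.1 on the knockout arrays, against 12.8, 16.2 and 14.3 on the heterozygous arrays. Dnah8 read 36.6, 40.1 and 7.79 against 6.37, 0.991 and 1.10 on 1 of its 2 probe sets, with Ko1 barely above the heterozygous arrays. The 2 lower ones were Cfap206, a radial spoke-associated protein (5.58, 3.72 and 13.7 against 14.8, 19.5 and 22.0), and Cfap52 (1.26, 6.32 and 9.57 against 26.6, 19.1 and 15.8). None of these was tested.

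At the edge of the limit, the probe sets just below it were those of Bbs12, at 28.4, 10.2 and 31.1 against 24.3, 28.4 and 19.8, and Dnah9, at 10.5, 28.9 and 25.7 against 26.7, 21.6 and 27.9. Just above it were Cfap97 on 1450076_at and Dnah7a. Related probe sets that the naming rule left out were also examined. The intermediate chain gene Dnaic1 had log2 changes of 0.18 ± 0.28 and -0.10 ± 0.29. A probe set shared by the spoke genes Rsph3a and Rsph3b was higher on each knockout array, though Ko1 exceeded the highest heterozygous signal only narrowly (501.6, 532.8 and 434.4 against 362.9, 434.2 and 411.5; 0.27 ± 0.18, limma adjusted p = 0.425).

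The genes with an X-box showed no common direction. Bbs1, Ift57, Cfap298 and Cfap20dc had tested probe sets. The change was -0.20 for Bbs1, 0.28 for Ift57, 0.27 and 0.02 for Cfap298 and 0.25 ± 0.29 for Cfap20dc. Spag16 and Cfap45 were too dim. Of the RFX genes, Rfx1 read 93.2, 75.4 and 91.9 on the knockout arrays, against 94.4, 119.4 and 141.6 on the heterozygous arrays, just without overlap (-0.38 ± 0.22, limma adjusted p = 0.363). Rfx4 had a log2 change of -0.57 ± 0.31 and Rfx3 one of -0.42 ± 0.35, with overlap.

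Other genes of motile cilia, from a list chosen by function, held no called probe set either. Of 63 probe sets for 39 genes 19 were tested, 0 were called (limma; 0 at an unadjusted p under 0.05), 8 changes were above 0 and 11 below, and the median was -0.05. Groups did not overlap for 1 of 19 (5.26%, against 27.4% of all probe sets), that of Rfx1. The smallest p was that of Tekt2, a tektin filament protein of the axoneme, at 5.48, 37.9 and 7.88 on the knockout arrays against 44.2, 54.3 and 27.3 (-0.91 ± 0.41, adjusted p = 0.249), with knockout 68 above the lowest heterozygous signal. Next was Dnaaf5, a dynein assembly factor (0.63 ± 0.32, adjusted p = 0.299). The knockout signals of Tekt2 averaged below the level limit on the log2 scale, so Tekt2 was tested only through its heterozygous signals.

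Among other genes of the primary cilium 2 of 88 tested probe sets rose and 0 fell, a share close to the 1.98% of all probe sets. Changes were above 0 for 46 and below for 42, with a median of 0.03. The median difference from the heterozygous mean was 0.01, -0.01 and 0.02 on knockout 67, 68 and Ko1, so the 88 did not stand low on 67 and 68. For the 19 tested probe sets of the motile list it was -0.22, -0.07 and 0.04. Groups did not overlap for 27 of 88 (30.7%, against 27.4% of all). Of these 10 were higher and 17 lower, where 14.9% and 12.5% of all probe sets tested were. Wdr35, an IFT-A subunit outside the naming rule, rose on probe set 1440318_at from 24.7, 20.6 and 16.1 on heterozygous 75, 76 and 81 to 93.3, 127.9 and 70.9 on knockout 67, 68 and Ko1 (1.61 ± 0.27, limma adjusted p = 0.0326). Its brighter probe set 1454790_at had a log2 change of -0.35 ± 0.20 (adjusted p = 0.355). Kif3b, a motor subunit of kinesin-2, rose on 1420987_at from 22.8, 44.5 and 23.1 to 89.5, 101.2 and 88.5 (1.27 ± 0.26, limma adjusted p = 0.0479). The heterozygous signals of the raised Wdr35 probe set averaged below the level limit, so it was tested only through its knockout signals. Neither call was kept with quantile normalization (1.38 for Wdr35 and 1.06 for Kif3b), without a limit on level (1.61 and 1.27, the same changes) or without any one array other than Ko1 (1.43 to 1.70 and 1.16 to 1.48), and that of Kif3b was also lost with arrays centred on their medians (0.87, adjusted p = 0.09).

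Kinesin-2 and dynein-2 subunits did not move as a unit. Besides the called one, Kif3b had 3 tested probe sets at 1.20 ± 0.28, 0.82 ± 0.26 and 0.25 ± 0.22. Kif3a was higher on 1 of 4 probe sets (0.88 ± 0.27, groups without overlap, limma adjusted p = 0.12) and between -0.24 and 0.10 on the others. Their partner Kifap3 was lower without overlap on both of its probe sets (-0.62 ± 0.22 and -0.65 ± 0.22, adjusted p = 0.161 and 0.149). The dynein-2 genes Wdr34, at 54.5, 51.7 and 63.7 on knockout 67, 68 and Ko1 against 120.5, 129.9 and 121.7 on heterozygous 75, 76 and 81, and Dync2h1 were lower on every knockout array (-0.95 ± 0.20 and -0.63 ± 0.21, adjusted p = 0.0516 and 0.142). Of the other dynein-2 genes, Dync2li1 (-0.47 ± 0.31) and Wdr60 (0.12 ± 0.25) overlapped between groups. Ptch1, the Hedgehog receptor of the cilium, read 300.6, 353.3 and 517.1 against 791.5, 830.4 and 758.9 on its brightest probe set (-1.03 ± 0.22, adjusted p = 0.0553), while its other tested probe set had a log2 change of 0.73 ± 0.52.

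Markers of ependymal and choroid plexus cells differed between the arrays in different ways. Of the ependymal markers, which include Foxj1, 12 probe sets of 11 genes were tested, 0 were called (limma; 1 at an unadjusted p under 0.05) and 11 of 12 changes were below 0, with a median of -0.14. The signals of the brightest probe set of each of 13 marker genes summed to 713 to 877 on the knockout arrays and 980 to 1209 on the heterozygous arrays. Tppp3, which neurons and glia also make, gave the largest part of this sum, at 236.9, 387.2 and 342.9 against 487.7, 534.5 and 456.7 (-0.61 ± 0.22, limma adjusted p = 0.16). Of the 13 brightest probe sets only that of Tppp3 had groups without overlap. The gap between the sums therefore cannot be read apart from Tppp3, or as a difference in ependymal RNA. The defining marker Ccdc153 overlapped between groups (-0.05 ± 0.24), and Tekt1 and Tekt4 were too dim to test.

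Ttr transcripts of the choroid plexus, whose epithelium also bears cilia, differed widely between arrays. Ttr, the main secreted product of that epithelium, read 16069.1, 17642.8 and 401.6 on the knockout arrays, against 621.6, 1538.9 and 3531.6 on the heterozygous arrays. Summed over the brightest probe set of each of 11 choroid plexus genes, nearly all of it Ttr on knockout 67 and 68, signals were 728 to 18222 on the knockout arrays and 998 to 3851 on the heterozygous arrays. Of the other markers, Kl and Folr1 were higher on all knockout arrays (0.98 ± 0.33 and 0.92 ± 0.34), whereas Sostdc1 (0.06 ± 0.33) and Calml4 (-0.11 ± 0.36) overlapped. All heterozygous signals of these Kl and Folr1 probe sets were under 24.2, so both passed the level limit only through the knockout arrays. Knockout 67 and 68, the arrays with high Ttr, were also those with high Spag6l and with low Ift74 and Bbs4 (1434460_at). Of 12 choroid plexus probe sets tested 11 had changes above 0, with a median of 0.89, and 0 were called (limma; 3 at an unadjusted p under 0.05). The 3 were those of Kl, Folr1 and Kcnj13, and the heterozygous signals of Kcnj13 also averaged below the level limit on the log2 scale. Oligodendrocyte markers were also highest on knockout 67 and 68: the brightest probe sets of 5 genes summed to 59768, 45005 and 23153 on the knockout arrays and to 16665 to 16902 on the heterozygous arrays. The part of ependymal, choroid plexus and oligodendrocyte RNA in the values of the cilium genes was not tested.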

How the data were processed

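RNA of 6 mouse brain samples was hybridised to Affymetrix arrays, 1 array a sample. Per the labels' protocols, RNA was prepared with Trizol and RNeasy and labelled by the one-cycle method. The deposited values are linear signal intensity per probe set from GCOS, per the submitters' processing notes; the sources used here give neither its version nor the summary algorithm. The trimmed mean of each array (2% off each end) was 100, so the authors' scaling was kept.

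From the deposited intensity, log2(signal + 16) was computed, 64 controls were removed, and the 22518 probe sets with a mean log2 value above the median of all 45037 were tested in R 4.3.3 using limma 3.58.1 (group as the only term in lmFit, eBayes with a trend, two-sided, Benjamini-Hochberg over all, threshold 0.05). The procedure was tested on simulated data. Errors are SE for log2 changes and SD for signals (n = 3). The number of arrays limits the precision. Python 3.11.15 was used for the other steps.

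Genes were named from the platform annotation. Named genes were Tyrobp; Foxj1, Spag6l, Spag16 and Spag17; in each role the 6 brightest members and the 3 with the smallest p; genes whose probe sets differ in sign where one has an unadjusted p under 0.05; those next to the level limit; and, for the lists of other cilium genes, those called and the 2 with the smallest p. Others are examples picked after their values were seen. Members, lists and tests were chosen with earlier results of these data known. Alternatives covered the scaling, the added constant, the level limit, the variance model, 1 probe set a gene, and leaving out arrays.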

Additional observations from a re-analysis of the deposited data

Results flagged for a closer look

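Of 45 spike-in control probe sets, which match no mouse transcript, 43 had all knockout signals above all heterozygous signals, a signal outside the comparison of mouse genes. Dixon's test for an outlying sample was not applied, since no group has more than 3 arrays.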

How the results depend on the processing

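No cilium probe set was called (limma) in the main setting or in 14 of the 17 alternatives. The count was 6 with array weights (12.2%, against 21.3% of all probe sets tested). It was also 6 without knockout Ko1 and heterozygous 81 together (12.2%, against 19.9%). When single arrays were left out it was 0 to 9, with 9 reached without knockout Ko1 (18.4%, against 23.2%). The median cilium change was -0.58 with arrays centred on their medians, 0.042 with no level limit and 0.072 without knockout 67 and 68. All probe sets called numbered 445, and 4786 with array weights, 129 with quantile normalization, 180 without trend, 124 with no level limit, 116 with 1 probe set a gene, 4478 without knockout Ko1 and heterozygous 81, and 0 (limma; 2846 to 3926 at an unadjusted p under 0.05) to 5220 with single arrays left out, the highest without knockout Ko1. Of them 62.9% were higher, and 17.2% of 581 with arrays centred. In the main setting the lists of other cilium genes had 19 motile and 88 primary probe sets tested, with 2 calls. These became 21 with array weights and 19 without knockout Ko1 and heterozygous 81, where 21.3% and 19.9% of all probe sets were called. They became 1 with a floor of 1 or without trend. The count was 0 (limma) with quantile normalization, no level limit, a limit at the 75th percentile, or 1 probe set a gene. With single arrays left out it ranged from 0 to 22, the highest without knockout Ko1, where 23.2% of all probe sets were called. The Tyrobp call was lost at -3.02 with a floor of 1, and at -1.68 with no level limit, without trend and with 1 probe set a gene; with single arrays left out it ranged from -1.94 to -1.38. Of 34 named cilium probe sets tested, 18 took the other sign in at least 1 alternative. None was called in the main setting or in a setting where it took the other sign. Those of Spag6l, Ift74, Cfap20 (1419462_s_at) and Ift80 (1427568_a_at) were called without knockout Ko1, but took the other sign without knockout 67 and 68. The cause of these differences was not tested.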
